A study of Mus musculus with 8 samples.

Results

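The genes described here are 10 Leydig cell genes of the mouse testis: Star, Cyp11a1, Fdx1, Hsd3b1, Hsd3b6, Cyp17a1, Hsd17b3, Lhcgr, Nr5a1 and Insl3. Lhcgr encodes the receptor for luteinizing hormone (LH), and Nr5a1 a transcription factor of steroid synthesis genes. Insl3 encodes a peptide hormone that is not a step of testosterone synthesis, and the remaining genes serve that synthesis. The 10 genes were taken by name, with earlier results of these data known, and all 10 were found among the 17127 genes of the expression table. The study compared testes of mice carrying CRISPR-Cas9 deletions in the Iqch gene, which encodes a testis protein with an IQ motif, with testes of wild-type mice, to learn how gene expression differs in the mutant. RNA-seq was done on total RNA of whole adult testes from males aged 4 months, with 1 library per testis. The 4 wild-type libraries (genotype WT) and 3 libraries of Iqch mutant males (genotype Iqch-/-, numbered 1, 2 and 4) were analysed, and the mutant numbered 3 is not analysed here. The mutants descend from edited B6CBAF1 zygotes and were studied as homozygotes of a pair of lines, mu5 and mu7, whose deletions shift the reading frame near the end of the protein. The study shows Iqch read coverage for mu7, and the labels do not say which line a library came from, nor the strain background or littermate status of the wild-type mice.

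Leydig cells lie between the seminiferous tubules, and in the adult mouse they are the main source of testosterone. LH binds its receptor on these cells and raises cyclic AMP, which brings cholesterol into mitochondria and sustains transcription of the enzymes of the pathway. In mitochondria cholesterol becomes pregnenolone, and in the endoplasmic reticulum pregnenolone is turned into progesterone, androstenedione and testosterone. Testosterone then acts on Sertoli and peritubular cells, on which the maturation of germ cells depends.

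In the mutant testes 9 of the 10 genes were higher than in wild type, none was lower and Star did not pass the test. The differences ran from a 1.36-fold higher mean for Fdx1 to a 9.58-fold higher mean for Hsd3b1, and Insl3, a peptide hormone and the most abundant of the 10 per kilobase, was 6.71-fold higher. A gene was called when its false discovery rate (FDR) was below 0.01 in a limma fit over all 17126 genes tested. The background was high, since 36.3% of all tested genes were called higher and 14.2% lower in the mutant. A fold change above 2 with that FDR was reached by 7 of the 10 genes and by 8.79% of all genes. All 3 mutant libraries lay above all 4 wild-type libraries for 9 of the 10 genes and for 42.8% of all genes. The median log2 fold change was 1.53 over the 10 genes and 0.12 over all genes, and 3.08% of all genes were at or above the median of the 10. After scaling by median-of-ratios size factors, which centre the libraries on the typical gene, the median of all genes was -0.01, that of the 10 genes 1.40, and the same number, 9, was called higher.

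Values are given as CPM, counts scaled so that each library adds up to 1000000. The libraries held 32064384 to 37551057 reads on the genes of the table, and the 10 genes were represented by 346 to 103869 reads in a library. Counting error was not compared with the spread between libraries. Iqch itself measured 216.6, 206, 216.2 and 193 CPM in wild-type 1 to 4 and 67.7, 64.8 and 69.2 CPM in mutants 1, 2 and 4. Its log2 fold change was -1.63 (SE 0.05, limma FDR = 1.92e-10), and no mutant library overlapped the wild type.

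In a whole testis each value is a share of the RNA of all its cells. More Leydig cells and more RNA per Leydig cell cannot be told apart in these libraries, and a lower share of RNA from other cells raises the CPM of every Leydig cell gene. The 12 spermatid markers, germ cell genes expressed after meiosis, summed to 24204 to 25678 CPM in wild type and 15893 to 18102 CPM in mutants. Of these markers 11 were called lower and none higher, beside 14.2% and 36.3% of all genes. Their part in the values below was not tested.

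**Figure D1:**
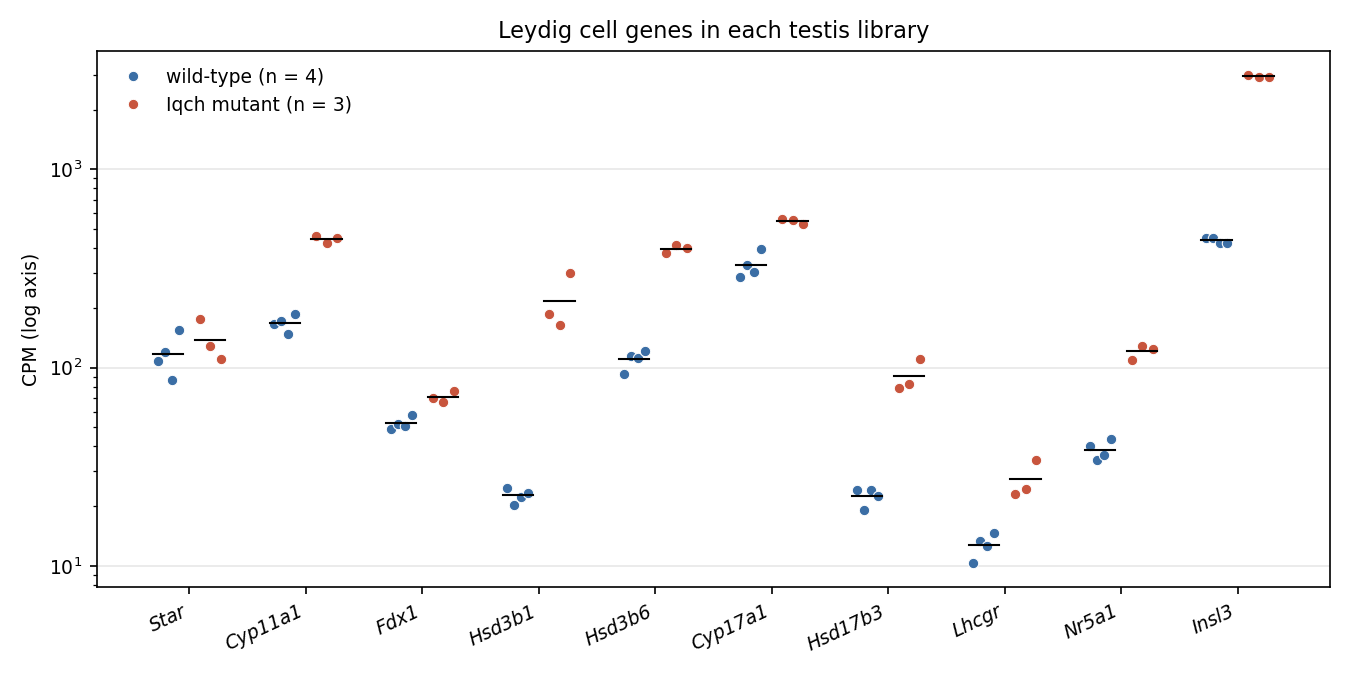
CPM of the 10 genes on a log axis in each of the 4 wild-type and 3 Iqch mutant libraries, with 1 point per library and a bar at the group mean. Star is the gene whose groups overlap, from 86.9 to 155 CPM in wild type and from 110.2 to 175 CPM in mutants.

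Star moves cholesterol to the inner mitochondrial membrane, the step that LH controls acutely. It lies on the plus strand of chromosome 8 at 26296583 to 26306010 (GRCm39, GENCODE M39). It measured 108, 119, 86.9 and 155 CPM in wild-type 1 to 4 and 175, 128 and 110.2 CPM in mutants 1, 2 and 4. The groups overlapped, with wild-type 4 above mutants 2 and 4. The log2 fold change was 0.24 (SE 0.17, 95% confidence interval -0.14 to 0.61, limma FDR = 0.246), and an exact permutation test over the libraries gave p = 0.343 (two-sided). Of the 10 genes Star had the largest spread among wild-type libraries relative to its mean, with 117 ± 28.7 CPM (SD, n = 4). In the annotation 79.2% of the 4055 bases of the main Star transcript lie within exons of Ash2l, a gene on the opposite strand that encodes a subunit of histone methyltransferase complexes. Ash2l measured 185 to 197 CPM in wild type and 180.1 to 184.5 CPM in mutants (log2 fold change -0.07, limma FDR = 0.133). After size factors Ash2l was called lower (-0.20, limma FDR = 0.000679). Whether reads were counted by strand is not given in the sources used here, so the reads of the shared stretch cannot be assigned to either gene.

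Cyp11a1 encodes the side-chain cleavage enzyme, which turns cholesterol into pregnenolone, and Fdx1 encodes ferredoxin, which carries electrons to it. Cyp11a1 (chromosome 9, 57913694 to 57935933, plus strand) measured 166, 171, 147 and 186 CPM in wild-type 1 to 4 and 463, 425 and 450.1 CPM in the mutants. Fdx1 (chromosome 9, 51852253 to 51875291, minus strand) measured 49.1, 51.9, 50.9 and 57.3 CPM in wild type and 70.2, 66.9 and 76.1 CPM in the mutants. Both genes were higher in every mutant library than in any wild-type library, but to different extents. The log2 fold change was 1.42 (SE 0.07, limma FDR = 4.84e-09) for Cyp11a1 and 0.44 (SE 0.06, limma FDR = 5.59e-05) for Fdx1. The position of Fdx1 was not far from that of the background, since 26.8% of all genes had a larger log2 fold change, against 3.85% for Cyp11a1.

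Hsd3b1 and Hsd3b6 encode the dehydrogenases that turn pregnenolone into progesterone, and both lie on the minus strand of chromosome 3, at 98757367 to 98767116 and 98712820 to 98721765. Hsd3b1 measured 24.7, 20.2, 22.3 and 23.3 CPM in wild-type 1 to 4 and 186, 163 and 302 CPM in mutants 1, 2 and 4. Hsd3b6 measured 92.7, 115, 112 and 121 CPM in wild type and 379, 413 and 399 CPM in the mutants. Hsd3b1 had the largest log2 fold change of the 10 genes, 3.21 (SE 0.16, limma FDR = 7.04e-09), and 0.222% of all genes exceeded it. Hsd3b6 was higher by 1.86 on the log2 scale (SE 0.07, limma FDR = 1.56e-09). Mutant 4 was the highest mutant for Hsd3b1 and lay well above the other two, whereas for Hsd3b6 the 3 mutants were close together.

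The balance between the pair of genes differed between the groups. In CPM, with no correction for length, Hsd3b1 made up 21.0%, 15.0%, 16.7% and 16.2% of the summed CPM of Hsd3b1 and Hsd3b6 in wild-type 1 to 4, and 32.9%, 28.3% and 43.0% in mutants 1, 2 and 4. The log2 ratio of Hsd3b1 to Hsd3b6 was -2.28 ± 0.26 (SD, n = 4) for wild type against -0.92 ± 0.47 (SD, n = 3) for mutants, with an exact permutation p of 0.0286 (two-sided), the smallest that 3 libraries against 4 can give. Summed, both genes gave 133 ± 11.1 CPM in the wild-type libraries (SD, n = 4), against 614 ± 75.4 CPM in the mutant libraries (SD, n = 3). The longest open reading frames of the 2 main transcripts have 1119 bases each and are identical at 90.0% of positions, and the longest stretch that the transcripts share without a mismatch is 72 bases. Hsd3b6 shares longer stretches with Hsd3b2 (144 bases) and Hsd3b3 (155 bases). How reads that match more than 1 copy were counted is not given in the sources used here, so both the split and the sum are uncertain. The other copies of the family, Hsd3b2, Hsd3b3, Hsd3b4, Hsd3b5, Hsd3b7, Hsd3b8 and Hsd3b9, have no row in the table.

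**Figure D2:**
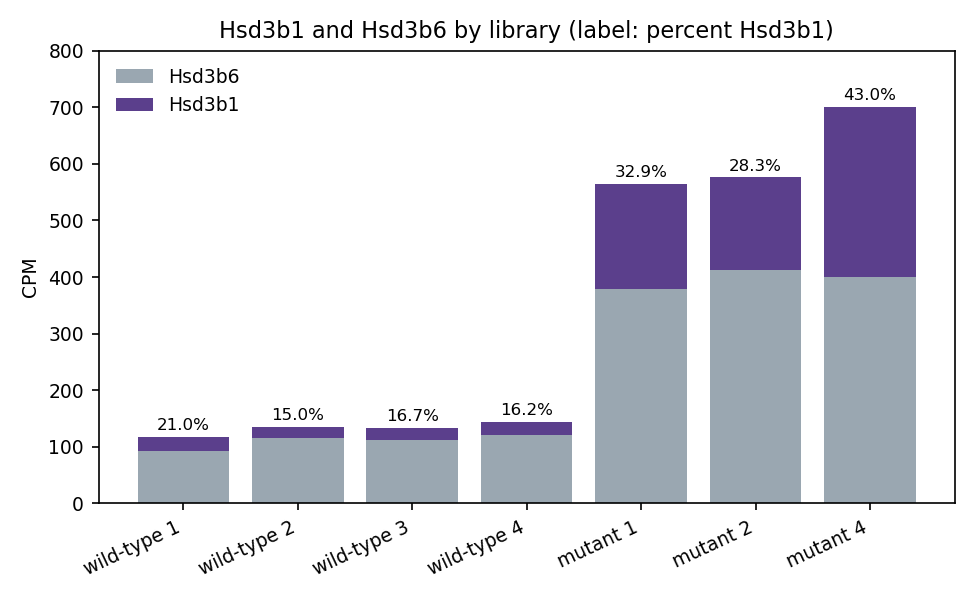
CPM of Hsd3b6 (grey) and Hsd3b1 (purple) stacked for each library, on a linear axis from 0, with the percent of the sum that is Hsd3b1 above each bar. The share was 15.0% to 21.0% in the 4 wild-type libraries and 28.3% to 43.0% in the 3 mutant libraries.

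Cyp17a1 encodes the enzyme that turns progestogens into androgens by hydroxylation and cleavage of the side chain. It lies on the minus strand of chromosome 19 at 46655604 to 46661611. It measured 287, 329, 304 and 397 CPM in wild-type 1 to 4 and 561, 554 and 528 CPM in the mutants. The mutants were close together and above all wild-type libraries, of which the fourth was the highest. The log2 fold change was 0.74 (SE 0.08, limma FDR = 8.43e-06), beside 1.42 for Cyp11a1 and 1.86 for Hsd3b6 earlier in the pathway.

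Hsd17b3 encodes the testis enzyme that turns androstenedione into testosterone, and lies on the minus strand of chromosome 13 at 64206080 to 64237208. It measured 24.1, 19.2, 24.1 and 22.6 CPM in wild-type 1 to 4 and 78.7, 82.2 and 109.9 CPM in mutants 1, 2 and 4. The log2 fold change was 1.99 (SE 0.11, limma FDR = 1.85e-08), a 4.01-fold higher mean. As for Hsd3b1, mutant 4 was the highest of the mutants.

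The promoters of 3 of these enzyme genes are shown because they are the enzyme genes of the final steps whose windows, the 250 bases before the start of the main transcript in GENCODE M39, overlap no annotated exon. They were read from GRCm39 on the strand of the gene, 5′ to 3′, at chr19:46661612-46661861 for Cyp17a1, chr3:98721766-98722015 for Hsd3b6 and chr13:64237209-64237458 for Hsd17b3, all on the minus strand. Capitals mark matches to AAGGNCA, the core of sites bound by the orphan receptor NR5A1, to GATAAG, the core of GATA factor sites, and to TGACGTCA, the cyclic AMP response element, each searched on both strands.
Cyp17a1: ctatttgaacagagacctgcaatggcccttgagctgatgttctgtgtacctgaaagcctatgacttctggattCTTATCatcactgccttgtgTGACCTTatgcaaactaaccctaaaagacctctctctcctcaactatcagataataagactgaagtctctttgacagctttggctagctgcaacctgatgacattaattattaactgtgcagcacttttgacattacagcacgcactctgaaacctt
Hsd3b6: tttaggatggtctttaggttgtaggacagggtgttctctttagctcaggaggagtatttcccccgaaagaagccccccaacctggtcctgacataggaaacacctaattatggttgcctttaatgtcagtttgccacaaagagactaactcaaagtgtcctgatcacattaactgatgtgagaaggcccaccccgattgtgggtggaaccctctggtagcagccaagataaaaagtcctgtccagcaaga
Hsd17b3: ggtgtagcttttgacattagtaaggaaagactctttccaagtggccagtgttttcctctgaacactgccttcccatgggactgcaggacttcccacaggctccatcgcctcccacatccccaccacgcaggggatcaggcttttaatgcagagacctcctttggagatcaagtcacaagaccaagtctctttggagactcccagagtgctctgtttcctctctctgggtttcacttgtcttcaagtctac

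In the Cyp17a1 window the reverse complement of GATAAG lies 177 to 172 bases and that of AAGGNCA 157 to 151 bases before the start, and the 2 matches do not overlap. These were the single matches to these motifs in the windows of all 10 genes, so that AAGGNCA and GATAAG each occurred in 1 of the 10 and TGACGTCA in none. The windows of 4 of the 10, Star, Hsd3b1, Insl3 and Fdx1, overlap annotated exons. For these the lack of a match says little about the promoter. Among the windows of 17044 genes of the table, 16.4% held AAGGNCA, 5.31% held GATAAG and 1.90% held TGACGTCA. A match is a run of letters in this window, and binding was not measured.

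Lhcgr encodes the LH receptor and lies on the minus strand of chromosome 17 at 89023909 to 89099473. It measured 10.4, 13.3, 12.6 and 14.6 CPM in wild-type 1 to 4 and 23.2, 24.5 and 34.2 CPM in mutants 1, 2 and 4. The groups did not overlap, and the log2 fold change was 1.09 (SE 0.14, limma FDR = 1.88e-05). Nr5a1 encodes steroidogenic factor 1, a nuclear receptor that drives transcription of steroid synthesis genes in Leydig and adrenal cells and is also present in Sertoli cells. It lies on the minus strand of chromosome 2 at 38581468 to 38604642 and measured 40.2, 34.1, 36.2 and 43.8 CPM in wild type and 109, 129 and 124 CPM in the mutants. Its log2 fold change was 1.65 (SE 0.08, limma FDR = 9.05e-09).

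Insl3 encodes insulin-like 3, a peptide hormone that adult Leydig cells secrete and that guides testis descent in the fetus. It lies on the plus strand of chromosome 8 at 72141858 to 72143225. It measured 451, 452, 424 and 425 CPM in wild-type 1 to 4 and 2984, 2918 and 2919.8 CPM in mutants 1, 2 and 4. The groups were far apart and the libraries within each were nearly equal, with a log2 fold change of 2.75 (SE 0.04, limma FDR = 2.02e-13). All 629 bases of the Insl3 transcript lie within exons annotated to Jak3, a kinase of cytokine receptors on the same strand, and 65.2% lie within exons of B3gnt3, a glycosyltransferase gene on the opposite strand. Jak3 measured 15.3 to 16.9 CPM in wild type and 33.8 to 39.5 CPM in mutants, with a log2 fold change of 1.19 (SE 0.07, limma FDR = 3.05e-08). B3gnt3 measured 1.46 to 2.39 CPM in wild type and 12.9 to 14.8 CPM in mutants, with a log2 fold change of 2.79 (SE 0.16, limma FDR = 2.51e-08). With 2918 to 2984 CPM for Insl3 in mutants, most reads counted for Insl3 were not counted for Jak3 or B3gnt3 as well. How many reads of Jak3 and B3gnt3 stem from Insl3 was not tested, since the counting rules are not given. For the same reason it is not known whether reads of Insl3 were left out because they match more than 1 gene.

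**Figure D3:**
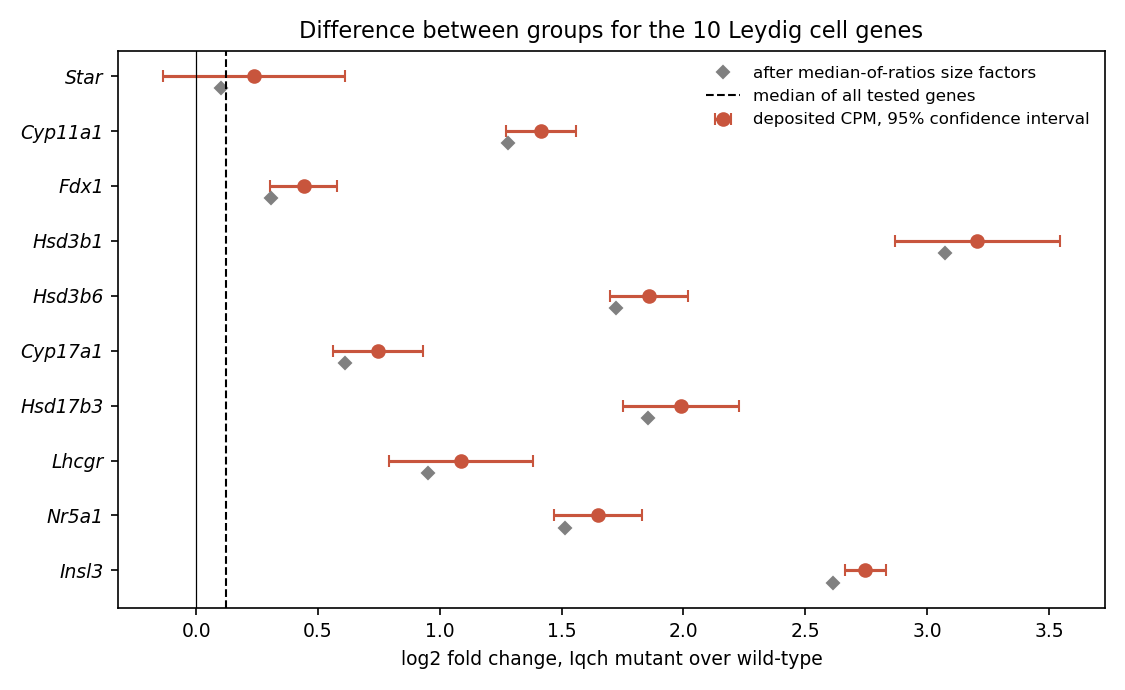
Log2 fold change of the 10 genes, Iqch mutant over wild-type, in the order of the pathway from cholesterol import to testosterone, then the receptor, the transcription factor and Insl3. Circles and bars give the limma estimate and 95% confidence interval, diamonds the estimate after size factors, and the dashed line the median of all tested genes, 0.12. The interval of Star includes 0, and those of the other 9 genes lie above the dashed line.

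The size of the difference varied from step to step. Along the pathway the log2 fold change was 0.24 for Star, 1.42 for Cyp11a1, 3.21 and 1.86 for Hsd3b1 and Hsd3b6, 0.74 for Cyp17a1 and 1.99 for Hsd17b3. Ratios within a library, which do not depend on how libraries are scaled, were used to compare the genes with each other. Each gene was set against the mean log2 value of the other 9 in its library, and the change of this ratio from wild type to mutant was tested with an exact permutation test, adjusted over the 10 ratios. The ratio was lower in every mutant library than in any wild-type library for Star (-1.45, SE 0.29), Fdx1 (-1.22, SE 0.02) and Cyp17a1 (-0.88, SE 0.10). For Star the ratio is uncertain, since 79.2% of its main transcript lies within Ash2l exons, where reads cannot be assigned. The ratio was higher without overlap for Hsd3b1 (1.85, SE 0.26), Insl3 (1.34, SE 0.10), Hsd17b3 (0.50, SE 0.16) and Hsd3b6 (0.36, SE 0.10). All 7 of these had an exact permutation p of 0.0286 (two-sided, adjusted 0.0408), which is the smallest p that 3 libraries against 4 allow. The ratios of Cyp11a1 (-0.14, SE 0.07, exact permutation p = 0.114), Lhcgr (-0.50, SE 0.17, p = 0.0857) and Nr5a1 (0.12, SE 0.11, p = 0.343) overlapped between the groups. Against the mean of the 10 genes, 93.4% of all genes of the table were lower in every mutant and 1.24% were higher in every mutant. Both shares are set by the high values of the 10 genes in mutants, and since each gene is set against the others, some of the 10 must be higher and some lower.

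Set against Insl3 alone, the other genes made up a smaller percentage in the mutants, with 1 exception. Star was 23.9%, 26.4%, 20.5% and 36.5% of Insl3 in wild-type 1 to 4 and 5.87%, 4.40% and 3.78% in mutants 1, 2 and 4. These percentages are uncertain, since both genes share exon bases with other genes and the counting rules are not given. Cyp17a1 was 63.5% to 93.3% of Insl3 in wild type and 18.1% to 19.0% in mutants, and Fdx1 10.9% to 13.5% and 2.29% to 2.61%. The groups did not overlap for any of the 9 genes (exact permutation p = 0.0286, adjusted 0.0286 over the 9 ratios). In 8 of the 9 the mutants were lower, as they were for 99% of all genes of the table, so that this direction was not particular to them. Hsd3b1 was the exception, at 4.48% to 5.47% of Insl3 in wild type and 5.60% to 10.3% in mutants. A ratio higher in every mutant was found in 0.117% of all genes, but for Hsd3b1 the gap was narrow, and with a pseudocount of 1 CPM the groups overlapped (exact permutation p = 0.0857).

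**Figure D4:**
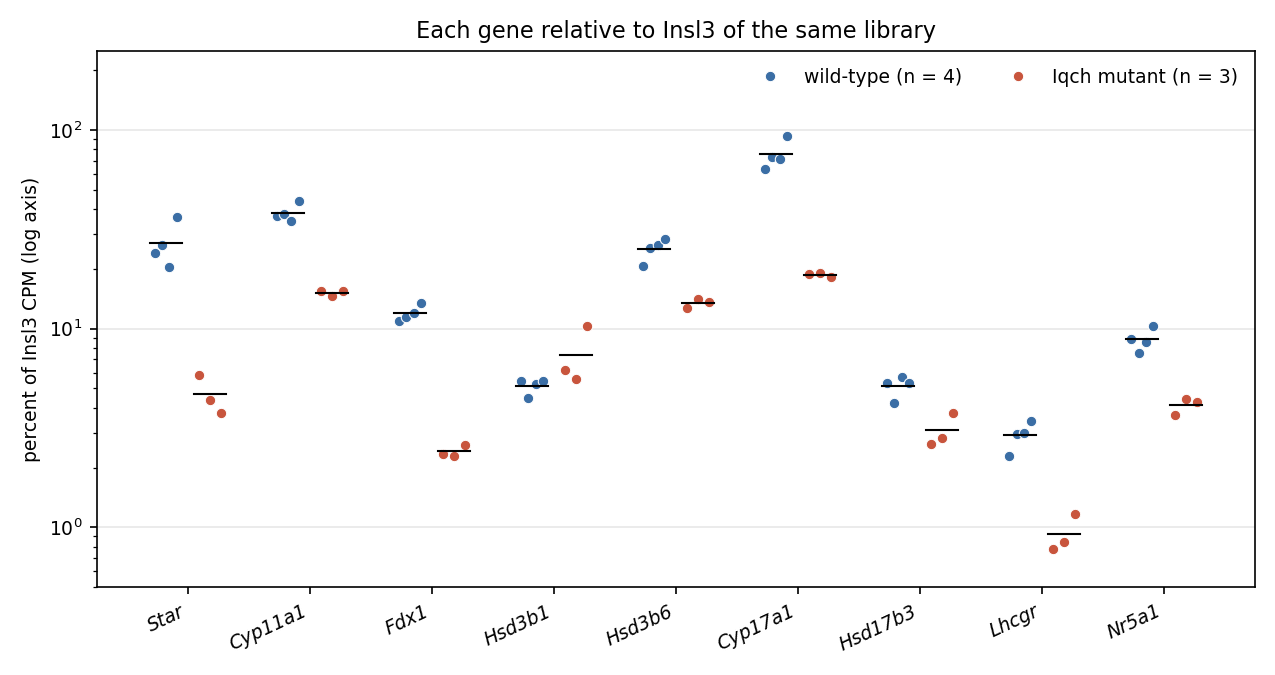
CPM of each of the 9 other genes as a percentage of Insl3 CPM in the same library, on a log axis, with 1 point per library and a bar at the group mean. Mutants (n = 3) lie below wild type (n = 4) for 8 genes, while Hsd3b1 lies slightly above, at 5.60% to 10.3% against 4.48% to 5.47%.

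As levels per kilobase of the main transcript, the order in wild type was Insl3, with 697 CPM per kilobase, then Cyp17a1 (164), Cyp11a1 (75.9), Hsd3b6 (60.8), Fdx1 (44.5), Star (28.9), Hsd17b3 (15.2), Nr5a1 (9.10), Hsd3b1 (4.15) and Lhcgr (1.84). In mutants the level per kilobase was 4675 CPM for Insl3, 272 for Cyp17a1, 219.7 for Hsd3b6, 202 for Cyp11a1, 61.0 for Hsd17b3, 60.5 for Fdx1, 39.8 for Hsd3b1, 34.02 for Star, 28.5 for Nr5a1 and 3.96 for Lhcgr. By the main transcript, Insl3 and Cyp17a1 kept the top positions. Hsd3b1 moved from place 9 to 7, Hsd17b3 from 7 to 5 and Star from 6 to 8. The per-kilobase ranges of the libraries overlapped between the neighbours Hsd3b6 and Cyp11a1 in wild type, at 51.3 to 66.8 and 66.7 to 84.2. The same pair overlapped in mutants, at 209.7 to 228 for Hsd3b6 and 192 to 209.9 for Cyp11a1. In mutants the ranges also overlapped for Hsd17b3 (53.2 to 74.3) and Fdx1 (57.0 to 64.7), and for Hsd3b1 (30.0 to 55.3), Star (27.2 to 43.2) and Nr5a1 (25.8 to 30.4). The levels depend on the transcript length used, which was 5453 bases for Hsd3b1 and 1808 bases for Hsd3b6. A shorter Hsd3b1 transcript would raise its level and could change its place. With all annotated exons of a gene Fdx1 fell to 5.86 CPM per kilobase in wild type. By that length Hsd3b6 (219.7) exceeded Cyp17a1 (197.8) in mutants. The place of Star is uncertain, since 79.2% of its main transcript lies within Ash2l exons, where reads cannot be assigned. The level of Insl3 is uncertain as well, since its transcript lies within Jak3 exons and the counting rules are not given.

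Among the libraries, the sum of the 10 genes was 1219 to 1446 CPM in wild type and 4905 to 5054 CPM in mutants, and without Insl3 it was 796 to 1021 and 1987 to 2134 CPM. Wild-type 4 was the highest wild-type library for 7 of the 10 genes and the lowest for none. Mutants 1, 2 and 4 were the highest mutant for 4, 2 and 4 genes. With any single library left out, 9 genes were called higher.

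The partners of these enzymes include electron donors, other hydroxysteroid dehydrogenases, and enzymes that reduce, aromatize or conjugate steroids. Of the 12 partners with values, 10 were called higher and none lower, beside 36.3% and 14.2% of all genes. Their median log2 fold change was 0.73, and 8 were called higher after size factors. Fdxr, the reductase that passes electrons to ferredoxin, was 34.5 to 38.2 CPM in wild type and 103 to 116 CPM in mutants, with a log2 fold change of 1.56 (SE 0.06, limma FDR = 9.10e-10). Fdx1, the ferredoxin it reduces, differed by 0.44, and the difference between the pair was not tested. Por and Cyb5a, which donate electrons to or assist Cyp17a1, had log2 fold changes of 0.76 (SE 0.07, limma FDR = 1.30e-06) and 0.96 (SE 0.06, limma FDR = 4.93e-08). Cyb5r3, which reduces cytochrome b5, had a log2 fold change of 0.67 (SE 0.06, limma FDR = 5.03e-07).

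Of the dehydrogenases related to Hsd17b3, Hsd17b11 was higher by 2.01 (SE 0.08), Hsd17b12 by 1.47 (SE 0.08) and Hsd17b7 by 0.71 (SE 0.13) on the log2 scale, with limma FDRs of 2.05e-09, 1.15e-08 and 0.000435. Srd5a1, which reduces testosterone to dihydrotestosterone, measured 4.47 to 5.24 CPM in wild type and 3.71 to 5.19 CPM in mutants (log2 fold change -0.11, limma FDR = 0.503). Cyp19a1, the aromatase that makes estrogen, measured 6.55 to 8.55 CPM and 7.86 to 9.45 CPM (0.16, limma FDR = 0.224). Neither passed the test, and their groups overlapped. Sult1e1, which sulfates estrogen, was the partner with the largest change, with 5.09, 9.90, 5.84 and 12.9 CPM in wild-type 1 to 4 and 60.9, 64.2 and 80.5 CPM in the mutants (log2 fold change 3.10, SE 0.25, limma FDR = 4.10e-07). Srd5a3 (0.56, limma FDR = 0.00179) and Cyp1b1 (0.36, limma FDR = 0.00176) were called higher, but after size factors their FDRs were 0.0102 and 0.0216 and the calls were lost. Srd5a2, Akr1c14, Hsd11b1, Hsd17b1, Hsd17b6 and Ugt1a6a have no row in the table.

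Genes that supply cholesterol to the pathway were called higher in 9 of 14 cases and lower in 1, beside 36.3% and 14.2% of all genes. Their median log2 fold change was 0.76. After size factors 9 were called higher and 2 lower, with a median of 0.63. Lipe, the hormone-sensitive lipase that frees cholesterol from its esters and is also expressed in germ cells, was the 1 gene called lower without size factors. It measured 368 to 393 CPM in wild type and 277 to 307 CPM in mutants (-0.41, SE 0.04, limma FDR = 5.73e-06). Scarb1, the receptor for high-density lipoprotein, measured 114 to 158 CPM in wild type and 144 to 163 CPM in mutants (0.23, limma FDR = 0.0393) and was not called.

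Of 22 genes of the LH signal and of Leydig cell transcription regulators, 12 were called higher and 2 lower, beside 36.3% and 14.2% of all genes, with a median log2 fold change of 0.26. After size factors 10 were called higher and 3 lower, with a median of 0.12. Cebpb, a transcription factor of the cyclic AMP response, had the largest change, from 0.874 to 1.32 CPM to 4.58 to 5.52 CPM (2.11, SE 0.17, limma FDR = 4.46e-07). Prkar1a, a regulatory subunit of protein kinase A, had a log2 fold change of 0.24 (limma FDR = 0.00088), which was not called after size factors (FDR 0.0976). Pde8a, a phosphodiesterase that breaks down cyclic AMP, and Nr4a1, an orphan receptor that LH induces, were called lower, by -0.20 (limma FDR = 0.00116) and -0.22 (limma FDR = 0.00782). Pde8a measured 230 to 252 CPM in wild type, beside 10.4 to 14.6 CPM for Lhcgr. Which cells the reads of Pde8a and Nr4a1 came from was not measured, so the lower values cannot be assigned to Leydig cells. Nr0b2 and Nr5a2 have no row in the table.

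Other markers of Leydig cells were set beside the 10 genes. They were chosen with earlier results of these data known, so they are no independent check of the label. Macrophage markers, given below, had a median log2 fold change of 1.57, so a high median was not particular to Leydig cell markers. Of 16 other Leydig markers with values, 13 were called higher and none lower, beside 36.3% and 14.2% of all genes. Their median log2 fold change was 1.48 beside 1.53 for the 10 genes. Their sum was 850 to 1083 CPM in wild type and 4351 to 4988 CPM in mutants. Agt, which encodes angiotensinogen, measured 215, 82.3, 185 and 97.7 CPM in wild-type 1 to 4 and 1380, 1309 and 1673 CPM in the mutants (3.43, SE 0.26, limma FDR = 2.58e-07). Ptgds, a prostaglandin D synthase, measured 194, 94.5, 185 and 128 CPM and 1202, 1233 and 1321 CPM (3.11, SE 0.19, limma FDR = 3.35e-08). For both genes the wild-type libraries spread over a wider range than for Insl3, but the groups did not overlap. The smallest change among called genes was that of Igf1 (0.36, limma FDR = 0.00608), which was not called after size factors (FDR 0.0535). Dlk1, a marker of fetal and immature Leydig cells, has no row in the table.

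Adrenal cells share much of this pathway, and adrenal-like cells can occur in the testis. Of 5 adrenal steroid genes, Cyp21a1 and Mrap were in the table and both were called higher, beside 36.3% of all genes. Cyp11b1, Cyp11b2 and Mc2r have no row. Cyp21a1, a steroid hydroxylase of the adrenal cortex, measured 4.49, 2.94, 3.01 and 2.72 CPM in wild-type 1 to 4 and 41.1, 27.1 and 53.2 CPM in mutants 1, 2 and 4 (3.56, SE 0.21, limma FDR = 2.74e-08). It has a near-identical pseudogene copy, so its reads are uncertain. Mrap, which helps the ACTH receptor to the cell surface, measured 5.45 to 9.69 CPM in wild type and 12.2 to 16.2 CPM in mutants (1.06, SE 0.18, limma FDR = 0.000219).

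Genes of androgen action, most of them known from Sertoli cells, were also measured. Of 9 androgen targets 8 were called higher and 1 lower, beside 36.3% and 14.2% of all genes, with a median log2 fold change of 0.85. Tubb3, a tubulin, and Fabp5, a fatty acid binding protein, were higher by 1.15 (SE 0.09, limma FDR = 2.46e-07) and 2.16 (SE 0.15, limma FDR = 1.09e-07). Cldn3, a claudin of the blood-testis barrier, fell from 61.1 to 72.7 CPM in wild type to 39.3 to 51.1 CPM in mutants (-0.59, SE 0.09, limma FDR = 7.10e-05). Of the Sertoli cell markers 14 of 14 were called higher, beside 36.3% of all genes, and 11 after size factors. Their median log2 fold change was 0.82, and their sum was 1737 to 1861 CPM in wild type and 3568 to 3771 CPM in mutants. Clu and Ctsl, the 2 Sertoli markers with the highest CPM, were higher by 1.09 (SE 0.04, limma FDR = 1.51e-09) and 1.08 (SE 0.04, limma FDR = 1.56e-09). They measured 816 to 890 CPM and 312 to 331 CPM in wild type, so the sum mainly follows this pair. Which cells the reads of the Sertoli markers came from was not measured. Vim had the largest change among them (1.24, SE 0.07, limma FDR = 2.74e-08) and Inhbb the smallest (0.32, limma FDR = 0.00271, and 0.0548 after size factors). The testosterone level was not part of these data.

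Markers of other testis cells are given beside the 36.3% of all genes called higher and 14.2% called lower, and their part in the values of the 10 genes was not tested. Of 11 markers of macrophages, which lie beside Leydig cells, 10 were called higher and none lower, with a median log2 fold change of 1.57 and a sum of 81.2 to 91.4 CPM in wild type and 215.1 to 252 CPM in mutants. C1qa, a complement gene, was higher by 1.94 (SE 0.10, limma FDR = 8.45e-09), C1qb by 1.57 (SE 0.09, limma FDR = 2.95e-08) and Mrc1, a mannose receptor, by 0.76 (SE 0.07, limma FDR = 1.70e-06). Of 8 peritubular myoid markers 4 were called higher and 1 lower (median 0.35, and 0.22 after size factors, sum 453 to 536 CPM and 444 to 490.1 CPM). Actg2, a smooth muscle actin, was lower by -0.44 (limma FDR = 3.37e-05). It measured 280.2 to 329 CPM in wild type and 209.8 to 238.4 CPM in mutants, so the sum mainly follows this gene. Which cells the reads of Actg2 came from was not measured. Mylk, a myosin light chain kinase, was higher by 0.42 (limma FDR = 2.43e-05) and Smtn by 1.23 (limma FDR = 4.77e-07). Of 7 endothelial markers 2 were called higher and none lower (median 0.17, sum 43.1 to 47.6 CPM and 56.9 to 59.7 CPM), among them Kdr, a receptor for vascular endothelial growth factor, by 1.81 (limma FDR = 3.87e-07) and Cdh5, vascular endothelial cadherin, by 1.05 (limma FDR = 6.71e-06). The endothelial median was 0.06 without mutant 2 and 0.04 after size factors. Vwf, the endothelial marker with the highest CPM, was not called (-0.21, limma FDR = 0.0142), but after size factors it was called lower (-0.35, FDR 0.00056). Of the markers listed, Fshr and Tf of Sertoli cells, Fcgr1 of macrophages, Tagln of myoid cells, Emcn and Tie1 of endothelium and the androgen target Tmprss2 have no row in the table.

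The remaining lists hold germ cell markers. Of 9 spermatogonia markers 4 were called higher and none lower (median 0.30, sum 139.6 to 153 CPM in wild type and 195 to 224 CPM in mutants), and after size factors 1 was (median 0.17). The count was 1 without mutant 2 or wild-type 2 and 2 without mutant 4 or wild-type 3. Kit, a receptor that Leydig cells express as well, was higher by 1.50 (SE 0.11, limma FDR = 2.42e-07), while Uchl1 (0.29, limma FDR = 0.00512) and Dmrt1 (0.22, limma FDR = 0.00732) were not called after size factors. Nanos3 has no row in the table. Of 10 spermatocyte markers 1 was called higher and 3 lower (median -0.03, sum 2261 to 2384 CPM and 2003 to 2020.1 CPM), and after size factors 0 were called higher and 5 lower (median -0.17). None was called higher without mutant 2, mutant 4 or wild-type 1, and without mutant 1 the median was 0.01. Pgk2 was lower by -0.33 (limma FDR = 1.81e-05), Spo11 higher by 0.27 (limma FDR = 0.00329, and 0.0768 after size factors) and Piwil1 was not called (-0.06, limma FDR = 0.315). After size factors Piwil1 was called lower (-0.20, limma FDR = 0.00513). The spermatid markers, summed above, had a median log2 fold change of -0.41. Prm2 and Prm1, the protamines, were lower by -0.60 (limma FDR = 2.98e-06) and -0.66 (limma FDR = 2.06e-07), Tnp1, a transition protein, by -0.68 (limma FDR = 1.70e-07) and Acrv1, an acrosomal protein, by -0.20 (limma FDR = 0.00545).

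**Figure D5:**
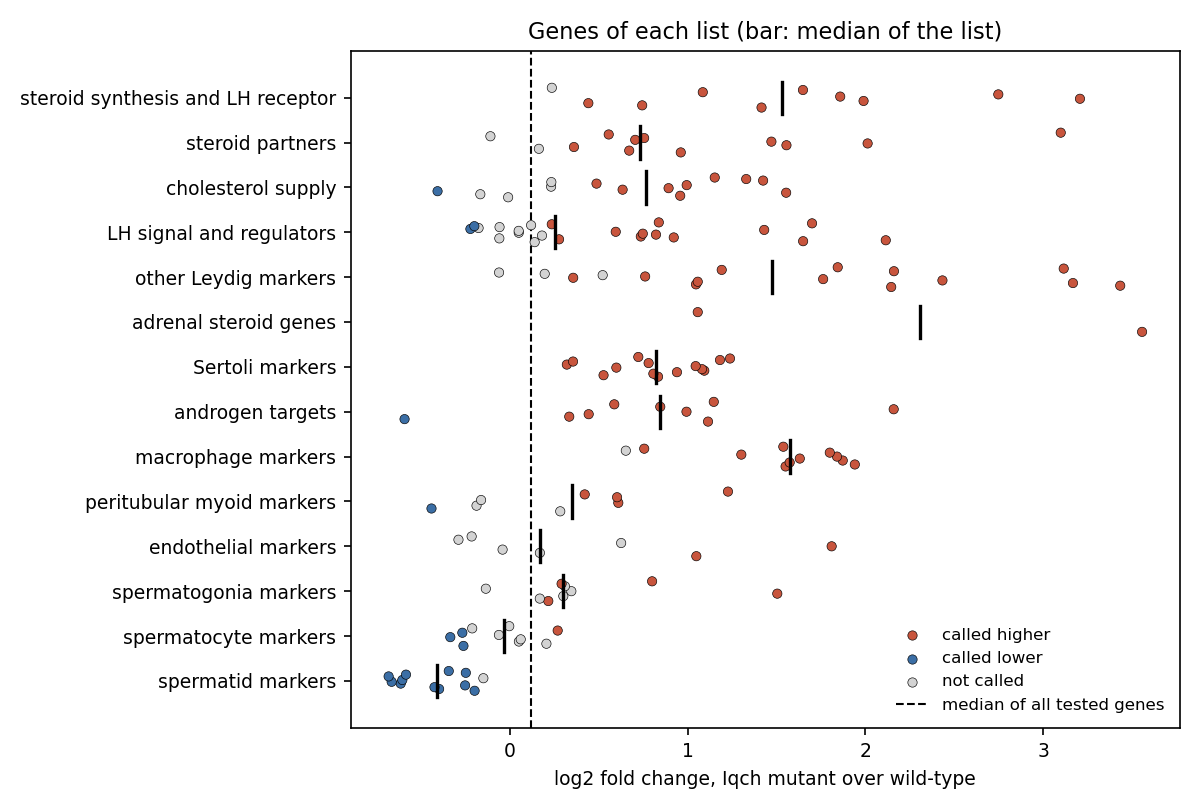
Log2 fold change, Iqch mutant over wild-type, of each tested gene in the 14 gene groups with a row in the table, with 1 point per gene coloured by the limma call and a bar at the median of each group. The dashed line is the median of all tested genes. Medians run from -0.41 for spermatid markers to 1.57 for macrophage markers among groups of 3 or more genes, and the steroid synthesis and LH receptor genes lie at 1.53.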

How the data were processed

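Total RNA of whole testes was sequenced as TruSeq libraries on a HiSeq2500. Per the labels and the study's methods, the authors trimmed reads with Trimmomatic, mapped them to GRCm39 (mm39) with Subread, used featureCounts for gene counts and dropped genes with few reads. The strand setting and the annotation release are not given in the sources used here. The authors left out 1 mutant library as an outlier. They deposited CPM, which sum to 1000000 in each library, and every value was, within 0.01 reads, a whole multiple of the step of its library, taken here as 1 read.

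Groups came from the sample titles. The limma package, version 3.58.1 (R 4.3.3; lmFit and eBayes with trend), was run on log2(CPM + 0.1). Genes needed 2.2 CPM or more in 2 libraries of either group, which kept 17126 and left out 1. P-values are two-sided, with Benjamini-Hochberg adjustment over all tested genes and calls at FDR below 0.01. Fold changes on this scale understate those of low genes, and ratios of means are on the CPM scale. A change of a single value was tested with an exact permutation test over the 35 arrangements of the libraries. Pseudocounts, minimum values, size factors, a replicate block and each library left out were tried as alternatives. The labels state no pairing between samples with the same number, and the main fit was unpaired. No label names the animals or batches, so p-values measure only the spread between these libraries.

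The 10 genes and the 14 other lists (partners, cholesterol supply, regulators, cell type markers) were chosen with earlier results of these data known. Genes named are the 10, all partner and adrenal genes in the table, genes overlapping the 10 and, of each other list, the 2 most abundant and the called genes with the largest and smallest log2 fold change. Of these, 1 gene is not reported here. GENCODE M39 (GRCm39) gave the gene models and held 17045 (99.5%) of the genes. Promoters and reading frames were read from that genome and its transcripts with Biopython 1.88. Other steps used Python 3.11.15, NumPy 2.4.6, pandas 2.3.3 and matplotlib 3.10.9.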

Additional observations from a re-analysis of the deposited data

Results flagged for a closer look

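None of the 10 steroid synthesis and LH receptor genes had a wild-type library that stood apart from the other 3. Among the 64 genes checked, 2 did: Cyp21a1, with 4.49 CPM in wild-type 1 against 2.72 to 3.01 CPM in the others, and Vwf, with 19.0 CPM in wild-type 4 against 18.1 CPM in the others. Chance alone sets a library apart in about 1 in 20 groups, and the mutant group of 3 libraries was not examined in this way.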

How the results depend on the processing

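In every alternative run (pseudocounts of 1 and 0.01, no minimum, a minimum of 5 CPM, size factors, both replicate blocks and each library left out) 9 of the 10 genes were called higher and none lower, and Star was not called. The log2 fold change of Star ran from 0.05 to 0.38 with a library left out, with limma FDRs down to 0.038. Over all genes, size factors left 8921 called against 8640, but 51.9% of these were higher (4627, with 4294 lower) against 71.9% before (6212 and 2428). For genes named in the report, a call lost or gained with size factors is given beside the value. With a library left out the spermatocyte median ran from -0.0656 to 0.0136, and it was above 0 without mutant 1 only. Of the ratios to Insl3, 8 of 9 did not overlap with a pseudocount of 1, and 7 of 10 with the other members as the reference. Same-numbered libraries had correlations of 0.0261, 0.0094 and -0.0977 over genes, taken on deviations from the group means. With so few pairs, these cannot exclude a pairing that the labels do not state. A replicate block gave 7722 calls over all libraries and 7705 over shared numbers, with 9 of the 10 genes called in both. With a library left out, all calls ran from 7237 to 8503. The planned edgeR and DESeq2 fits were not run, since the table holds CPM, with too few low values for a separate check of the read numbers, which rest on the step of each library. The lowest of the 10 genes had 346 reads in a library, and counting error was not estimated separately.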
